A study of Mus musculus with 8 samples.

Results

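The genes described here are 31 mouse genes of sterol and fatty acid synthesis, taken by name from the 24505 gene rows of each deposited table. The sterol branch holds 21 of them and the fatty acid branch the other 10. RNA was sequenced from an embryonic stem cell line in which Ino80 can be deleted; Ino80 encodes the ATP-driven motor of a chromatin remodelling complex. The study asked how deletion of Ino80 changes the transcriptome in naive and in primed pluripotent cells, and 8 libraries were made, 2 in each of 4 groups. The naive groups were kept in 2iL, which is N2B27 medium with the MEK inhibitor PD0325901, the GSK3 inhibitor CHIR99021 and LIF. The primed groups were kept in FAX, which is N2B27 medium with FGF-2, Activin A and the tankyrase inhibitor XAV-939. In each state 1 group is labelled knockout and 1 wild type, and all 8 libraries carry the same line name, INO80 CKO. For deletion, cells received 100 nM 4-hydroxytamoxifen (4-OHT) over 2 days and were cultured for 2 days more. Whether the wild-type cells also received 4-OHT, how many clones the line represents and which part of Ino80 is removed are not stated by the sources available here. The labels do not tell whether both libraries of a group stem from separate cultures, so the spread between libraries could be technical. The p-values rest on that spread as shared by genes of similar level over all 4 groups, not on the 2 libraries of each group for a single gene.

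Cells build cholesterol from acetyl-CoA through mevalonate, isoprenoids, squalene and lanosterol, and build fatty acids from the same acetyl-CoA through malonyl-CoA. Transcription of both routes is driven by the sterol regulatory element binding proteins, membrane-bound factors that SCAP escorts out of the endoplasmic reticulum when sterols are scarce and that INSIG proteins hold back when sterols are plentiful. SREBP-2, from Srebf2, acts mainly on sterol genes, and SREBP-1, from Srebf1, acts mainly on fatty acid genes. At their promoters these factors work together with NF-Y, which binds the CCAAT box, and with Sp1.

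Values are RPKM, reads scaled by gene length and by library size, which the authors scaled further by a method that the sources do not state. A difference is given as knockout minus wild type on the log2(RPKM + 1) scale, which understates the change of genes with low RPKM. A gene was called when its Benjamini-Hochberg adjusted p from limma was below 0.05 over the 13428 genes tested. In the primed state the deposited values fell across most genes, with a median difference of -0.53, against 0.05 in the naive state. The primed median depended on the level, from -0.59 among genes with a mean log2 value of 1 to 2 and -0.71 at 2 to 3 to -0.14 at 7 to 8. The median RPKM of tested genes was 8.06 and 7.60 in the primed knockout libraries and 11.5 and 15.3 in the wild-type ones, so the wild-type libraries also differed from each other. Results are therefore also given after quantile normalization, which sets all 8 libraries of both states to a common distribution. They are also given after loess normalization, which aligns the libraries within each state. Both, like median centring, remove a shift shared by most genes, also where it is a real one. Differences after these scalings are thus relative to the other genes. Whether the primed fall is real or comes from the scaling was not tested. The depth of sequencing is not known, since the tables give no counts. The RNA is from bulk cultures, in which fewer cells of a type and less RNA per cell cannot be told apart.

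Ino80 itself was at 15.9 and 15.1 RPKM in the naive libraries labelled knockout and at 17.0 and 14.5 RPKM in the naive wild-type libraries. These ranges overlap, and the log2 difference was -0.02 ± 0.19 (SE, limma adjusted p = 0.975). Primed libraries gave 9.12 and 8.74 RPKM with the knockout label and 15.9 and 20.3 RPKM with the wild-type label, a log2 difference of -0.93 ± 0.19 (limma adjusted p = 2.04e-06). In that state 59.3% of all tested genes were called lower. The primed median was -0.65 among genes with a mean log2 value of 3 to 4 and -0.52 at 4 to 5. How much of the primed Ino80 difference is this general fall was not tested. An RPKM over the whole gene does not check a deletion of part of it, so "knockout" below means libraries labelled knockout, and in the naive state the label has no support from this value. Markers of pluripotent cells summed to 989 to 1531 RPKM over 6 genes in all 8 libraries. The 7 naive-state markers summed to 791 RPKM or more in naive libraries and to 11.2 RPKM or less in primed ones.

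Promoter sequence is shown first, because members of both branches share it to different degrees. RefSeq promoter windows of build GRCm38.p6, from 250 bases before the annotated start to 50 after it, could be matched by symbol for 25 of the 31 genes, 17 of the sterol and 8 of the fatty acid branch. Stard4, Sqle, Fdps, Fdft1, Scd1 and Scd2 were not matched. The matched genes have 31 windows, and in 25 of these the 30 bases after the start were found in a transcript of the gene. The other windows stay in the counts, and their starts are less certain. The sequences below run 5′ to 3′ on the strand of the gene, cover only the 250 bases before the start, and carry CCAAT or its reverse complement ATTGG in capitals. For Hmgcs1 a match to the sterol regulatory element TCACNCCAC is in capitals as well. Mvd, Msmo1 and Nsdhl are shown as sterol genes whose knockout effects differed most between the states, Fasn as the fatty acid gene with the largest such difference, and Hmgcs1 as the member with the sterol element.
Mvd, chr8:122443423-122443672, minus strand: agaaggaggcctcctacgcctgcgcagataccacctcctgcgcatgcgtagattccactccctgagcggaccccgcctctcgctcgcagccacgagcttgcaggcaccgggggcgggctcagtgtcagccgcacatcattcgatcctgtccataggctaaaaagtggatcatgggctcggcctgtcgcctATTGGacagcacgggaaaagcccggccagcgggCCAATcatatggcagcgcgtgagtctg
Msmo1, chr8:64733579-64733828, minus strand: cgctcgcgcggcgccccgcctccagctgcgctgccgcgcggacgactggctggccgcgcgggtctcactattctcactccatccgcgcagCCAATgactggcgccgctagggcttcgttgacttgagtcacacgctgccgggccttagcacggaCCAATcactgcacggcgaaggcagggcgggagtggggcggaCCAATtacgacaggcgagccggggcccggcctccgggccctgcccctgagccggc
Nsdhl, chrX:72918271-72918520, plus strand: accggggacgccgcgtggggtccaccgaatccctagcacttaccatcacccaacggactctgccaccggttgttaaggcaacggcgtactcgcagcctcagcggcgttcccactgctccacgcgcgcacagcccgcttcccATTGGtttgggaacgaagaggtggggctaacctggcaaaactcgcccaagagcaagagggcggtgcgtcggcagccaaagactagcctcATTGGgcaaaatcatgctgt
Fasn, chr11:120824548-120824797, minus strand: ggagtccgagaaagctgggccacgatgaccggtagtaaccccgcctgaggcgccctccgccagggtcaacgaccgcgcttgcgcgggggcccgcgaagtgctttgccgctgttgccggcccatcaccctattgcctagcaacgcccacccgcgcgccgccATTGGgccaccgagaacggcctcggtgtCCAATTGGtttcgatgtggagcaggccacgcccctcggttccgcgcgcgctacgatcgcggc
Hmgcs1, chr13:119690101-119690350, plus strand: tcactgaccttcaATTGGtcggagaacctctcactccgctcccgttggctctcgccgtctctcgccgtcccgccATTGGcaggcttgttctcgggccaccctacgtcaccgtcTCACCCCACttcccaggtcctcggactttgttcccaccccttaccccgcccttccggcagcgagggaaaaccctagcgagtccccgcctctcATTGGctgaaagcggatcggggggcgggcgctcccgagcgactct

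In these letters Mvd has 2 CCAAT matches, whose first bases lie at -60 and -27 from the start. Msmo1 has 3, at -160, -96 and -55, and Nsdhl has 2 before the start, at -109 and -20, and 2 after it. Fasn has 3 matches, at -90, -62 and -59, of which the last pair overlap. Over whole windows and both strands, CCAAT was present in 16 of 17 sterol genes (94.1%), all but Acat2, and in 5 of 8 fatty acid genes (62.5%), against 41.1% of 27025 genes with a window and 43.4% of the tested ones. At least 2 matches in 1 window were found for 9 sterol genes (52.9%) and for Fasn alone among the fatty acid genes, against 13.3% of all genes. The Sp1 motif GGGCGG was present in 94.1% of the sterol and 50% of the fatty acid genes, against 38.2% of all and 70% of tested genes. The E-box CACGTG was found for Hsd17b7, Sc5d, Dhcr7 and Insig1 (23.5%) and for 0 of 8 fatty acid genes, against 8.09% of all and 11.9% of tested genes. The sterol element as spelled here was found for Hmgcs1 alone, beside 1.44% of all genes. None of the motifs was tested, and a match is a stretch of letters, not a bound site.

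**Figure D1:**
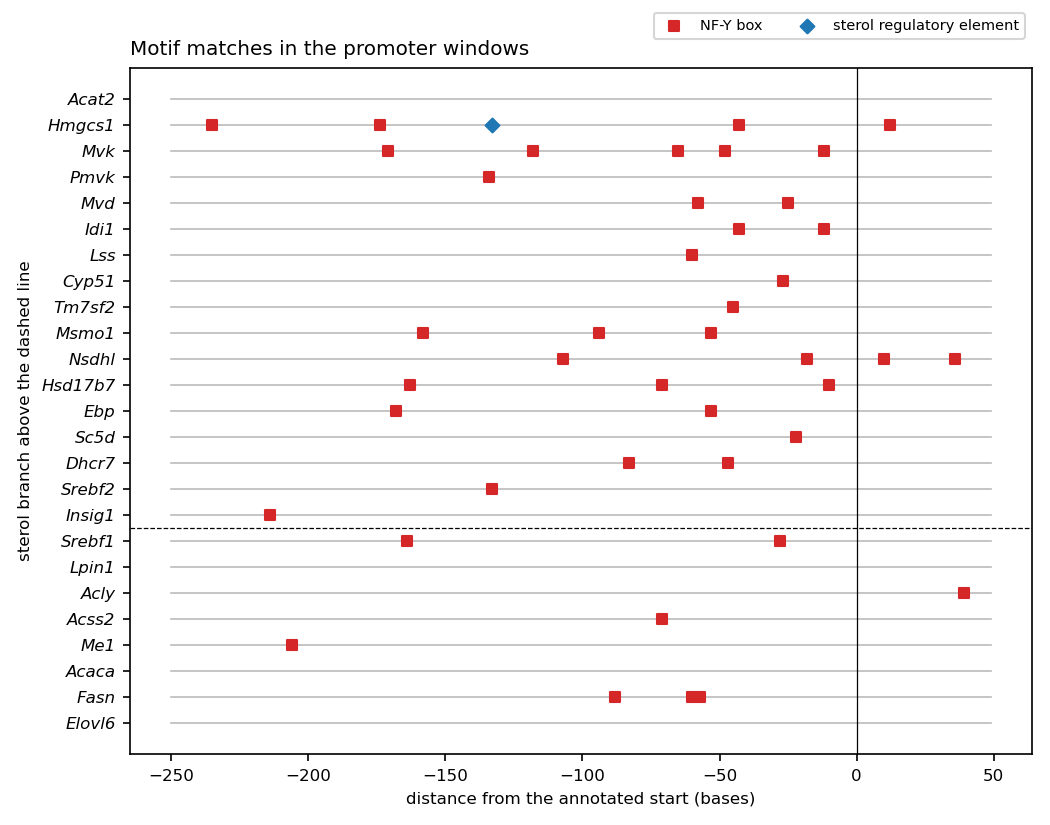
Positions of CCAAT matches (red squares) and of the sterol regulatory element match (blue diamond) in the promoter windows of the 25 matched genes, in bases from the annotated start; windows of genes with several starts are drawn on 1 line. Sterol genes, above the dashed line, have matches in 16 of 17 cases, and 20 of their 34 matches (58.8%) lie within 100 bases before a start, against 62.5% in the fatty acid branch and 43.6% over all windows.

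One gene could not be followed. Hmgcs1, which makes HMG-CoA, was listed at 0.0019 to 0.014 RPKM in the 8 libraries, with only 67 to 94 of 24505 rows at or below it. Its neighbours in the pathway were listed at several RPKM or more in the same libraries. It did not pass the filter of 1 RPKM in 2 libraries and is in no count below, which leaves 20 sterol genes. Fdft1, Tm7sf2, Srebf1, Lpin1 and Acaca each overlap another protein-coding gene (Ctsb, Vps51, Rai1, Ntsr2 and Tada2a), and Scd1 and Scd2 are close paralogs. How shared reads and strands were counted is not stated by the sources available here, so values of these genes are less certain.

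In the naive state the sterol genes were lower in the knockout. Of 20 tested, 13 were called lower and 0 higher, while 5.85% of all tested genes were called lower and 6.08% higher. The median difference of the 20 genes was -0.58, against 0.05 over all genes, and all 20 differences were negative. Both knockout libraries lay below both wild-type libraries for 19 of the 20 genes, against 21.0% of all tested genes. The exception was Hsd17b7, with 8.11 and 7.61 RPKM beside 10.7 and 7.93 RPKM.

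Among the early enzymes, Mvd, which decarboxylates mevalonate diphosphate to isopentenyl diphosphate, was at 30.8 and 30.0 RPKM in the naive knockout and at 67.8 and 66.7 RPKM in the naive wild type. The groups lay far apart, and Mvd fell by 1.12 on the log2 scale (SE 0.12, limma adjusted p = 3.38e-18). Pmvk, the kinase just before it, was at 13.9 and 14.4 RPKM against 30.4 and 26.1 RPKM and fell by 0.95 (SE 0.14, adjusted p = 1.6e-09). Fdps, which joins isoprene units into farnesyl diphosphate, was at 75.5 and 72.8 RPKM against 117 and 131 RPKM and fell by 0.73 (SE 0.09, adjusted p = 4.61e-14). In each case the 2 knockout libraries were close together and below both wild-type libraries. Acat2, which joins acetyl-CoA units, also fell, by 0.53 (SE 0.11, adjusted p = 4.29e-05), from 60.7 ± 0.21 to 41.8 ± 1.48 RPKM (mean ± SD, n = 2). Mvk, the first mevalonate kinase, and Idi1, the isopentenyl diphosphate isomerase, had differences of -0.37 (adjusted p = 0.099) and -0.48 (adjusted p = 0.223).

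At the squalene and lanosterol steps, Lss, which closes the sterol rings, was at 15.0 and 14.9 RPKM against 29.0 and 24.8 RPKM and fell by 0.80 (SE 0.15, adjusted p = 6.46e-06). Fdft1, squalene synthase, fell by 0.46 (SE 0.13, adjusted p = 0.0047), a call that was lost without either naive knockout library (adjusted p = 0.236 and 0.16) or the second naive wild-type library (adjusted p = 0.0743). Sqle, squalene epoxidase, differed by -0.19 (adjusted p = 0.22).

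Of the late steps from lanosterol to cholesterol, 5 of 8 genes were called. This is a share like those of the early enzymes (4 of 6), the squalene and lanosterol steps (2 of 3) and the regulators and carrier (2 of 3). Msmo1, a sterol C4-methyl oxidase, was at 79.3 and 82.1 RPKM in the naive knockout and at 148 and 173 RPKM in the wild type. It fell by 0.98 (SE 0.09, adjusted p = 1.37e-23). Nsdhl, which acts next in removing the C4 methyl groups, was at 15.7 and 16.1 RPKM against 34.3 and 33.3 RPKM and fell by 1.04 (SE 0.15, adjusted p = 8.1e-11). Both genes thus had no overlap between groups. Tm7sf2, a sterol C14-reductase, was at 13.5 and 13.3 RPKM against 27.4 and 26.8 RPKM and fell by 0.97 (SE 0.16, adjusted p = 1.24e-07). Cyp51, the lanosterol demethylase, fell by 0.73 (SE 0.11) and Dhcr7, which makes cholesterol in the last step of one route, by 0.67 (SE 0.12), with adjusted p of 7.11e-09 and 8.9e-07. Hsd17b7, Ebp and Sc5d had differences between -0.21 and -0.14 that were not called.

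Of the regulators, Insig1 was at 38.1 and 37.9 RPKM against 58.0 and 61.3 RPKM and fell by 0.64 (SE 0.15, adjusted p = 0.000281). Srebf2 was at 75.6 and 71.9 RPKM against 87.6 and 93.5 RPKM and fell by 0.29 (SE 0.09, adjusted p = 0.0214). These are the factor that drives the branch and the protein that restrains it, and both groups were apart in each. The Insig1 call was lost without either naive knockout library (adjusted p = 0.071 and 0.0775), and the Srebf2 call was lost under 9 alternatives. These were no filter, median centring (adjusted p = 0.125), no trend, the replicate block, and leaving out either naive knockout library, the second naive wild-type library or either primed knockout library (adjusted p = 0.0605 to 0.45). Stard4, a cytosolic sterol carrier, differed by -0.37 (adjusted p = 0.127).

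The fatty acid genes were mixed in the naive state, with a median difference of -0.05 over 10 genes, 3 called lower and 0 higher. Of all tested genes 5.85% were called lower and 6.08% higher. Scd1 and Scd2 place the first double bond into saturated fatty acids. Scd1 was at 54.6 and 57.1 RPKM against 83.1 and 91.4 RPKM and fell by 0.63 (SE 0.12, adjusted p = 4.88e-06). Scd2 was at 275 and 280 RPKM against 392 and 438 RPKM and fell by 0.58 (SE 0.08, adjusted p = 7.19e-12). Acly, which supplies cytosolic acetyl-CoA to both routes, was at 166 and 162 RPKM against 201 and 219 RPKM and fell by 0.35 (SE 0.08, adjusted p = 0.000596). All 3 had knockout libraries below both wild-type libraries. Over the branch this held for 4 of 10 genes and the reverse for 3, against 21.0% and 31.2% of all tested genes. With median centring Acly (adjusted p = 0.145) and Scd2 (adjusted p = 0.0764) were no longer called, and Acly was not called without the second naive knockout library (adjusted p = 0.0925).

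The enzymes that build the chain were not called as deposited. Fasn, fatty acid synthase, was at 116 and 111 RPKM in the naive knockout and at 110 and 121 RPKM in the wild type, an overlap with a difference of -0.03 (adjusted p = 0.911). Elovl6, which lengthens the chain, differed by 0.12 and Acaca, which makes malonyl-CoA, by -0.31, neither of them called. Acaca was at 8.39 and 8.24 RPKM against 11.9 and 9.32 RPKM, without overlap. It was called lower under median centring, quantile and loess normalization (limma adjusted p = 0.00113, 8.62e-05 and 5.56e-05). Elovl6 was called higher after quantile and loess normalization, by 0.10 in each. The regulators Srebf1 and Lpin1, a phosphatidate phosphatase that also acts in the nucleus, had positive differences of 0.26 and 0.46 (adjusted p = 0.0964 and 0.0627). Acss2, which activates acetate, and Me1, which supplies NADPH, had differences of -0.06 and 0.05.

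After quantile normalization all 20 sterol genes were called lower in the naive knockout and 0 higher, beside 27.5% and 31.9% of all genes. The median sterol difference was then -0.60. Of the fatty acid genes 3 were called higher and 4 lower, and loess normalization gave 20 sterol genes lower and 3 and 5 fatty acid genes. The lower level of the sterol genes in the naive knockout thus kept its direction for all 20 genes under median centring, quantile and loess normalization.

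**Figure D2:**
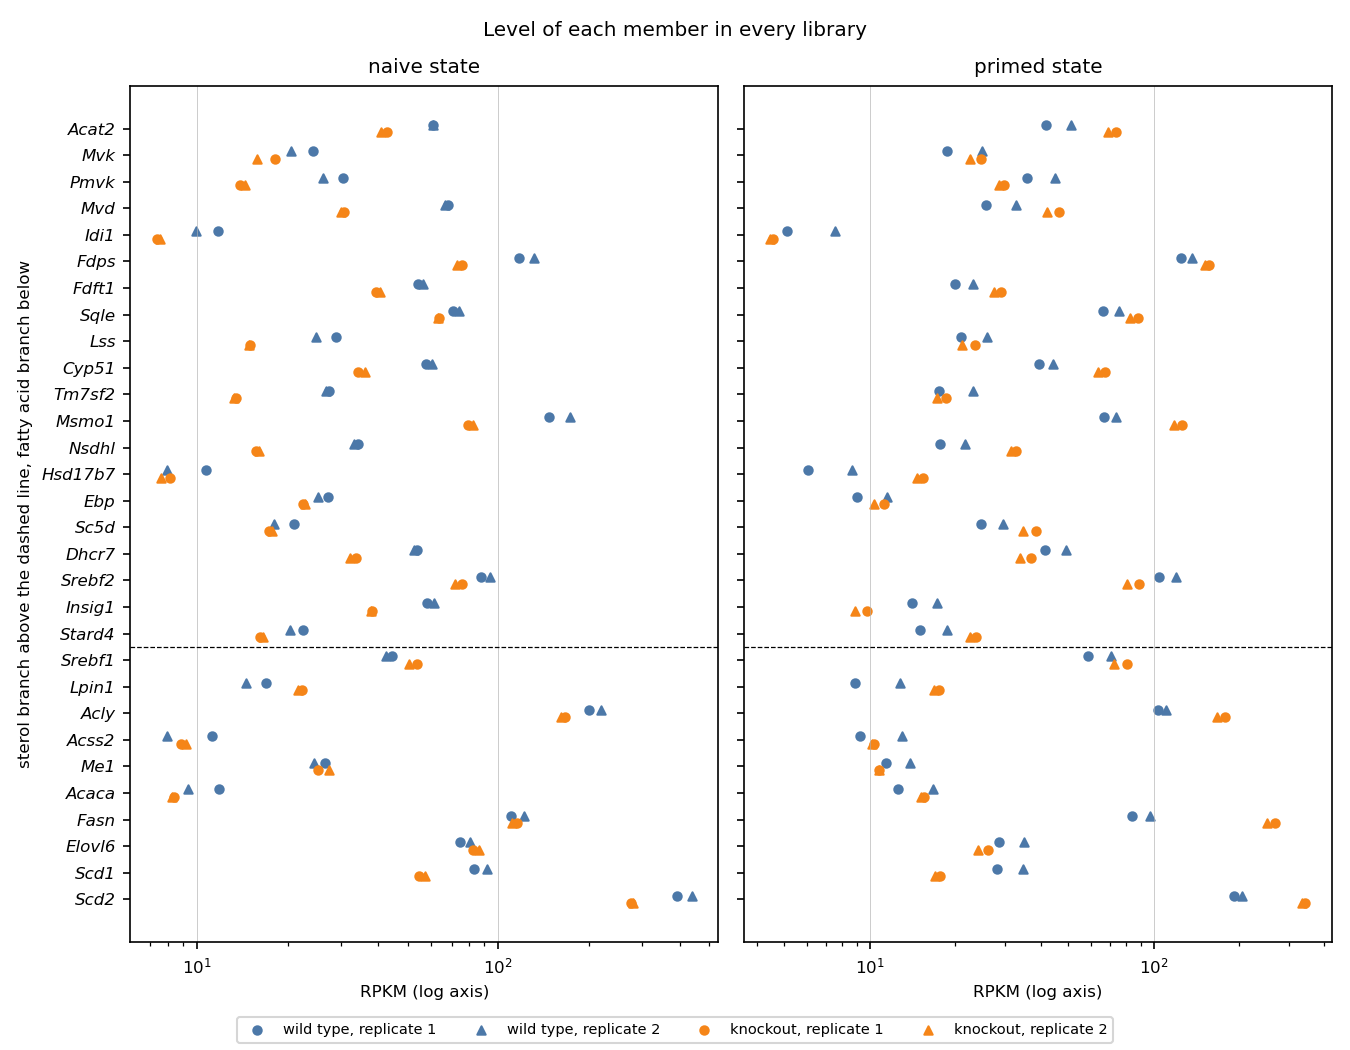
RPKM (log axis) of the 30 tested genes in each library, naive at the left and primed at the right, with wild type in blue and knockout in orange and a symbol for each replicate. In the naive panel the orange symbols lie left of the blue ones for 19 of the 20 sterol genes, and in the primed panel they lie right of both for 11.

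In the primed state the same branch was higher in the knockout for most genes. Of the 20 sterol genes 11 were called higher and 4 lower, while 4.16% of all tested genes were called higher and 59.3% lower. Their median difference was 0.25, against -0.53 over all genes. Both knockout libraries lay above both wild-type libraries for 11 sterol genes (55.0%), against 6.77% of all tested genes, and below both for 5, against 76.4%. Of the fatty acid genes 5 were called higher and 2 lower, with a median difference of 0.16. Without the first primed knockout library 6 sterol genes were called higher, and without the second 2 were called lower.

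Late enzymes had the largest sterol differences. Hsd17b7, a 3-ketosteroid reductase of the C4 demethylation complex, was at 15.4 and 14.7 RPKM in the primed knockout and at 6.04 and 8.62 RPKM in the primed wild type. It rose by 0.97 (SE 0.22, adjusted p = 4.3e-05). Msmo1 was at 126 and 118 RPKM against 67.1 and 73.7 RPKM and rose by 0.79 (SE 0.09, adjusted p = 2.48e-16). The 2 knockout libraries were above both wild-type libraries for each of these genes. Nsdhl was at 32.6 and 31.4 RPKM against 17.7 and 21.7 RPKM and rose by 0.68 (SE 0.15, adjusted p = 1.03e-05). Cyp51 was at 67.4 and 63.6 RPKM against 39.6 and 44.3 RPKM and rose by 0.63 (SE 0.11, adjusted p = 1.03e-07). Sc5d, the lathosterol desaturase, rose by 0.42 (SE 0.15, adjusted p = 0.00705), a call that was lost without the first primed knockout library (adjusted p = 0.153). Ebp, the sterol isomerase, and Tm7sf2 differed by 0.07 and -0.16 and were not called.

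Of the early enzymes, Acat2 was at 74.0 and 69.1 RPKM against 41.8 and 51.2 RPKM and rose by 0.62 (SE 0.11, adjusted p = 8.49e-08). Mvd was at 46.3 and 42.2 RPKM against 25.6 and 32.7 RPKM and rose by 0.59 (SE 0.12, adjusted p = 3.19e-06). Neither gene overlapped between its groups. Fdps, Fdft1 and Sqle rose by 0.24, 0.37 and 0.26 (adjusted p = 0.0135, 0.00675 and 0.0163). Each of these 3 calls was lost without the first primed knockout library (adjusted p = 0.139, 0.0993 and 0.183), those of Fdps and Sqle also without the second (adjusted p = 0.0654 and 0.0581), and that of Sqle without the first primed wild-type library (adjusted p = 0.065). Stard4 rose by 0.44 (adjusted p = 0.0123), a call that was lost without either primed knockout library (adjusted p = 0.138 and 0.086). Mvk, Lss and Idi1 had differences of 0.12, -0.06 and -0.39 that were not called.

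The 4 sterol genes called lower in the primed knockout were Pmvk, Dhcr7, Srebf2 and Insig1, and their direction depended on the scaling. Insig1 was at 9.73 and 8.89 RPKM against 14.1 and 17.3 RPKM, and fell by 0.69 (SE 0.15, adjusted p = 8.83e-06) as deposited. After quantile and loess normalization it differed by -0.00036 and -0.03 and was not called. Srebf2 was at 89.1 and 80.7 RPKM against 104 and 120 RPKM, and fell by 0.39 (SE 0.09, adjusted p = 0.0001) as deposited, by 0.12 after quantile and by 0.14 after loess normalization, but differed by 0.30 with median centring. Pmvk and Dhcr7 fell by 0.45 and 0.34 as deposited and differed by 0.03 and 0.11 after quantile normalization, and neither was called without the second primed knockout library (adjusted p = 0.0766 and 0.153). In all 4 genes the deposited knockout values lay below both wild-type values, as they did in 76.4% of all tested genes.

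Among the fatty acid genes Fasn stood out in the primed state. It was at 269 and 250 RPKM in the knockout and at 84.1 and 97.1 RPKM in the wild type, 2.86 times higher by group means. The log2 difference was 1.51 ± 0.09 (SE, adjusted p = 7.16e-65), larger than in any other of the 30 genes. Scd2 was at 343 and 334 RPKM against 192 and 204 RPKM and rose by 0.77 (SE 0.08, adjusted p = 3.91e-22). Acly was at 178 and 168 RPKM against 103 and 111 RPKM and rose by 0.69 (SE 0.08, adjusted p = 5.55e-15). Knockout and wild-type libraries were well apart for all 3. Lpin1 was at 17.6 and 16.8 RPKM against 8.88 and 12.7 RPKM and rose by 0.64 (SE 0.17, adjusted p = 0.000624). Srebf1 rose by 0.24 (adjusted p = 0.0363), a call that was lost without either knockout library of either state or the first primed wild-type library (adjusted p = 0.0703 to 0.334).

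The desaturases parted in the primed knockout. Scd1 was at 17.6 and 16.9 RPKM against 28.1 and 34.7 RPKM and fell by 0.82 (SE 0.12, adjusted p = 6.79e-11), while its paralog Scd2 rose. The direction of Scd1 held under quantile (-0.27), loess (-0.29) and median scaling (-0.13), the last without a call (adjusted p = 0.447). Elovl6 fell by 0.32 (SE 0.11, adjusted p = 0.0102) as deposited, but differed by 0.21 and 0.18 after quantile and loess normalization. Its call was lost without the second primed knockout or the second primed wild-type library (adjusted p = 0.152 and 0.105). Acaca, Acss2 and Me1 had differences of 0.08, -0.09 and -0.21 that were not called.

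After quantile normalization 17 sterol genes were called higher and 1 lower in the primed knockout, beside 39.4% and 34.6% of all genes, and the 1 lower gene was Srebf2. Of the fatty acid genes 9 were called higher and 1, Scd1, lower. Medians were then 0.74 for the sterol and 0.68 for the fatty acid genes, against 0.03 over all genes.

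**Figure D3:**
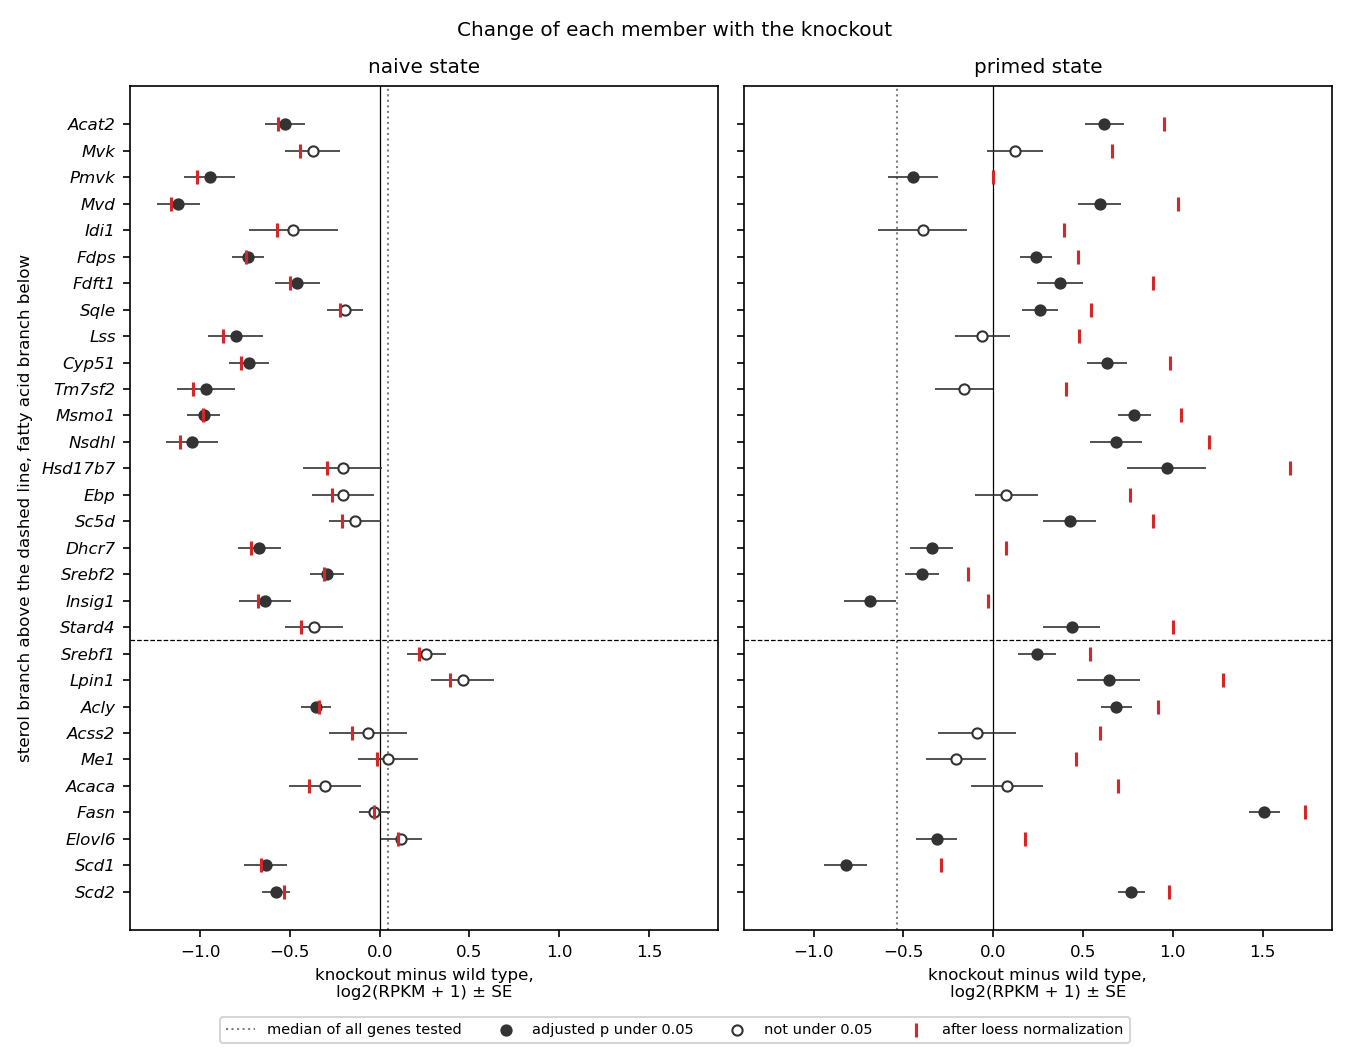
Knockout minus wild type on the log2(RPKM + 1) scale with its SE for the 30 tested genes, naive at the left and primed at the right; filled points have an adjusted p below 0.05, red bars are the values after loess normalization, and the dotted line is the median of all genes tested. Naive sterol points lie left of 0, and primed red bars lie right of most points, by amounts that differ between genes. The primed median of all genes was -0.53 as deposited.

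The difference between the states was tested in the same fit as the primed minus the naive effect. For 15 of the 20 sterol genes the primed effect was higher and for 0 lower, while 2.16% of all tested genes were called higher and 47.4% lower. The median of the sterol genes was 0.77 and that of all genes -0.59. Msmo1 had a difference of 1.76 ± 0.13 (SE, adjusted p = 2.7e-39), Nsdhl of 1.73 ± 0.21 (adjusted p = 3.43e-15) and Mvd of 1.71 ± 0.17 (adjusted p = 7.07e-22). Idi1, Ebp, Dhcr7, Srebf2 and Insig1 were not called, with differences from -0.10 to 0.33. Of the fatty acid genes Fasn (1.54 ± 0.12), Scd2 (1.35 ± 0.11) and Acly (1.04 ± 0.12) were called higher, and Elovl6 (-0.44 ± 0.16) lower as deposited but 0.11 after quantile normalization. After quantile normalization all 20 sterol and all 10 fatty acid genes were called higher and 0 lower, beside 33.9% and 30.5% of all genes.

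Called lower in the naive and higher in the primed knockout were 7 sterol genes, Acat2, Mvd, Fdps, Fdft1, Cyp51, Msmo1 and Nsdhl, and 2 fatty acid genes, Acly and Scd2. Called lower in both states were Pmvk, Dhcr7, Srebf2, Insig1 and Scd1. Fasn was called only in the primed state, and its difference between the states was itself called. As deposited, the 7 sterol genes that turn direction are enzymes, from the joining of acetyl-CoA to the removal of the lanosterol methyl groups. After quantile normalization other sterol genes turned as well. Among them were the carrier Stard4 (-0.41 naive and 1.05 primed) and Dhcr7 (-0.70 and 0.11), each called in both states. Of the genes called lower in both states as deposited, Srebf2 and Insig1 are regulators, and this depended on the scaling. After quantile normalization primed Insig1 was not called (-0.00036), and the primed minus naive difference was called higher for Insig1 (0.66) and Srebf2 (0.19), as for the enzymes.

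**Figure D4:**
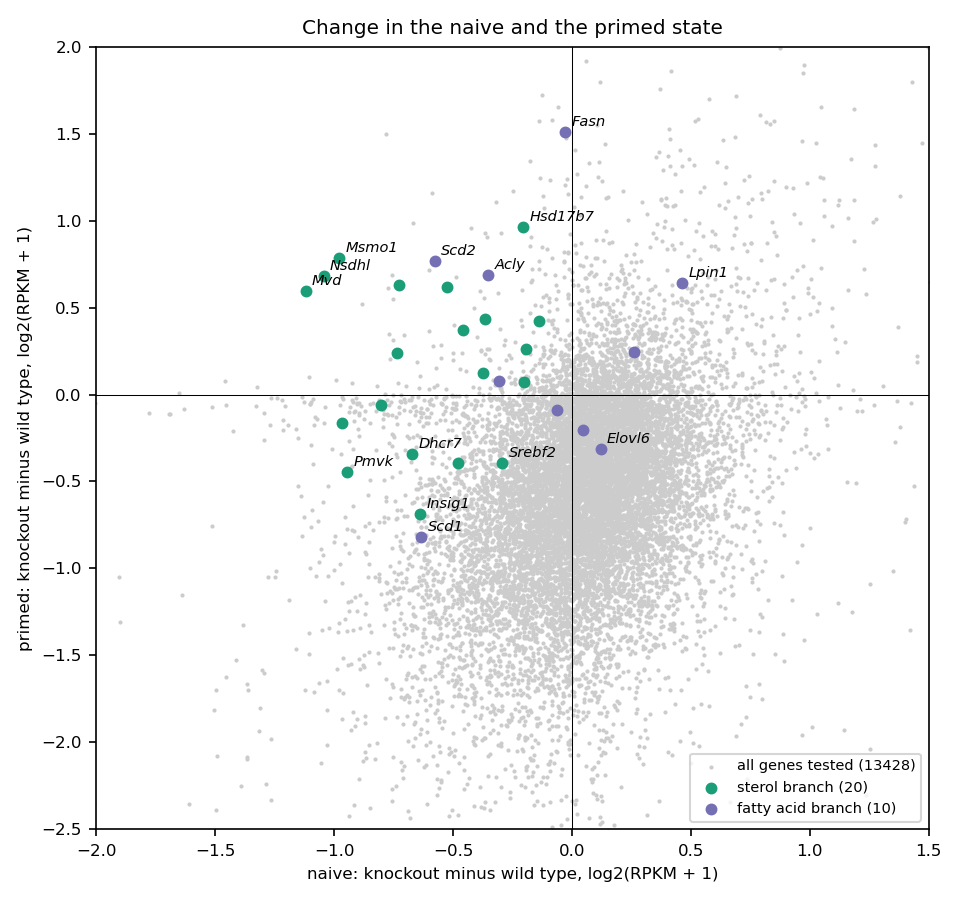
Difference in the primed state against difference in the naive state, both knockout minus wild type on the log2(RPKM + 1) scale, for the sterol (green) and fatty acid (purple) genes over 13299 of all tested genes (grey; 129 lie outside the axes). Sterol genes lie left of 0 on the naive axis, with Msmo1, Nsdhl and Mvd at the far upper left and Fasn at the top near 0 on the naive axis.

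Summed over each branch, the RPKM of the sterol genes was 661 and 654 in the naive knockout and 1015 and 1042 in the naive wild type. The primed sums were 946 and 885 in the knockout and 716 and 840 in the wild type. The fatty acid sums were 812 and 813 against 971 and 1049 in the naive state, and 968 and 919 against 537 and 609 in the primed state. Sums of the 2 groups did not overlap in any of these 4 cases. As a share of all RPKM of its library, which a common scaling factor cannot change, the sterol branch took 0.164% and 0.164% in the naive knockout and 0.251% and 0.258% in the naive wild type. In the primed state that share was 0.262% and 0.259% in the knockout and 0.162% and 0.165% in the wild type. The share of the branch was thus low in the knockout in one state and high in the other, and the replicates of a group lay close together. The fatty acid share was 0.201% and 0.204% against 0.241% and 0.260% in the naive state, and 0.268% and 0.269% against 0.122% and 0.120% in the primed state.

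The ratio of the sterol to the fatty acid sum was lower in the knockout in both states. It was 0.813 and 0.804 against 1.04 and 0.993 in the naive state and 0.978 and 0.963 against 1.33 and 1.38 in the primed state, which is 0.794 and 0.716 of the wild-type ratio. The sums follow a few abundant genes, since Fasn, Scd2 and Acly held 67.7% to 81.9% of the fatty acid sum. Over single genes the sterol median was below the fatty acid median in the naive state (-0.58 and -0.05) but not in the primed state (0.25 and 0.16). With 2 libraries a group these ratios were not tested.

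**Figure D5:**
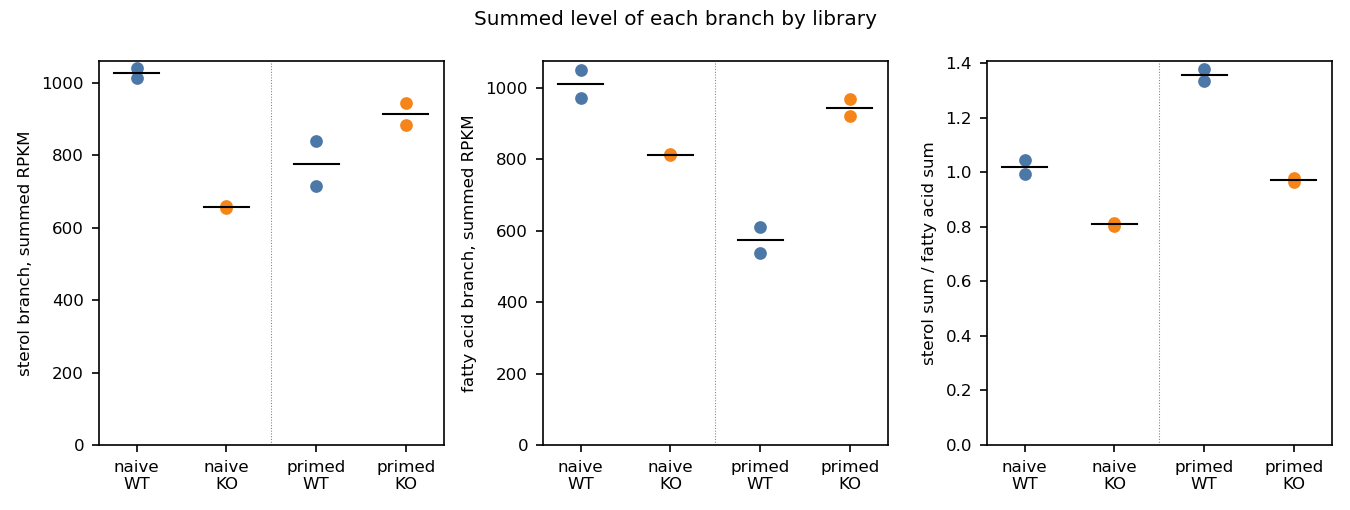
Summed RPKM of the sterol branch, of the fatty acid branch, and their ratio, in each library (points) with the group mean (bar), wild type in blue and knockout in orange. The sterol sum is 661 and 654 in the naive knockout below 1015 and 1042 in the wild type, and 946 and 885 in the primed knockout above 716 and 840.

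Levels in naive and primed cells are given side by side only, since the method of scaling is not stated and may have differed between the states. In the wild type, Scd2 had the highest RPKM of the members in both, at 415 ± 33.1 naive and 198 ± 8.66 primed (SD, n = 2). Msmo1 was the highest sterol gene in the naive wild type (160 ± 18.0 RPKM) and Fdps in the primed wild type (131 ± 7.76 RPKM). In the naive wild type Msmo1 and Fdps were next to each other in the order, and the values of Fdps (117 and 131 RPKM) lay below those of Msmo1 (148 and 173 RPKM). Insig1 stood at 59.6 ± 2.33 RPKM in the naive and 15.7 ± 2.27 RPKM in the primed wild type, and Scd1 at 87.3 ± 5.88 and 31.4 ± 4.69 RPKM.

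Other genes of these pathways were followed in further lists. Nus1 and Pdss2, which act in dolichol and ubiquinone synthesis, fell in the primed state, by 0.87 and 0.90, the first not called with median centring and the second not after loess normalization (adjusted p = 0.114 and 0.0582) or without the second primed knockout library (adjusted p = 0.0514).

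Among 12 genes of SREBP processing and sterol uptake, 1 was called higher and 1 lower in the naive state, and 2 higher and 9 lower in the primed state. Of all tested genes 6.08% were called higher and 5.85% lower in the naive state, and 4.16% and 59.3% in the primed state. Scap, the escort of the SREBPs, was at 40.6 and 40.2 RPKM against 28.2 and 24.3 RPKM in the naive state and at 30.9 and 28.2 RPKM against 15.6 and 19.7 RPKM in the primed state. It rose in both, by 0.61 (SE 0.14, adjusted p = 0.000284) and 0.72 (SE 0.14, adjusted p = 9.91e-07), the naive call being lost without either naive knockout library (adjusted p = 0.0755 and 0.0675). Scarb1, the HDL receptor, fell in both, by 0.61 and 1.10, the naive call being lost without either naive knockout library or the first naive wild-type library (adjusted p = 0.0737 to 0.172). Vldlr was at 0.41 and 0.47 RPKM in the primed knockout against 19.0 and 24.6 RPKM in the wild type and fell by 3.97 (SE 0.28, adjusted p = 1.04e-42). Npc1, which moves cholesterol out of lysosomes, and Mbtps2, a protease that releases SREBPs, fell by 1.17 and 1.13 in the primed state, where 59.3% of all genes were called lower.

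Of 8 tested genes of LXR targets, efflux and esterification, 1 was called higher and 0 lower in the naive state and 1 higher and 5 lower in the primed state, where 59.3% of all tested genes were called lower, a share near 5 of 8. The 1 higher gene was Abca1, which exports cholesterol, in both. It was at 9.10 and 8.82 RPKM against 4.75 and 2.96 RPKM in the naive and at 2.41 and 2.28 RPKM against 0.468 and 0.619 RPKM in the primed state. Abca1 rose by 1.06 (SE 0.28, adjusted p = 0.0029) and 1.12 (SE 0.28, adjusted p = 0.000227), the naive call being lost without either naive knockout library. Of 21 tested other genes of fatty acid synthesis, 0 were called higher and 5 lower in the naive state and 2 higher and 12 lower in the primed state. Of all tested genes 6.08% were called higher and 5.85% lower in the naive state, and 4.16% and 59.3% in the primed state. The primed 12 of 21 are thus near the share of all genes. Fads2, a desaturase of polyunsaturated fatty acids, was at 45.5 and 43.3 RPKM against 85.2 and 93.5 RPKM in the naive state and fell by 0.99 (SE 0.10, adjusted p = 5.85e-22). Mid1ip1, an activator of acetyl-CoA carboxylase, fell by 0.92 in the naive and by 2.68 in the primed state. Aacs, which activates acetoacetate for lipid synthesis, fell by 0.42 (adjusted p = 0.0394) in the naive and rose by 0.96 (adjusted p = 9.17e-10) in the primed state, the naive call being lost without any 1 of the naive or primed knockout libraries or of the naive wild-type ones (adjusted p = 0.0884 to 0.465).

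Fatty acid oxidation was the opposing route on the lists. Of 18 tested genes, 2 were called higher and 1 lower in the naive state, and 2 higher and 10 lower in the primed state. The 10 of 18 are near the 59.3% of all tested genes called lower there, where 4.16% were called higher. In the naive state 6.08% of all tested genes were called higher and 5.85% lower. Cpt1c was listed as a member of the carnitine palmitoyltransferase family, and whether it acts in oxidation in these cells was not tested. Cpt1c was at 59.1 and 57.7 RPKM against 22.7 and 21.1 RPKM in the naive state and rose by 1.38 (SE 0.12, limma adjusted p = 7.12e-29). It rose by 1.14 (SE 0.12, adjusted p = 4.94e-21) in the primed state. Acadvl, the very long chain acyl-CoA dehydrogenase, rose by 0.67 and 0.63, the naive call being lost without either naive knockout library (adjusted p = 0.0987 and 0.0945). Etfb, an electron carrier subunit, fell by 0.55 and 1.59.

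Markers of other cell types were compared between the same groups. In the naive state 2 of 4 neural markers were called higher, beside 6.08% of all tested genes. The 4 neural markers summed to 83.4 to 86.2 RPKM in the naive knockout and 44.2 to 50.4 RPKM in the naive wild type. Fibroblast markers summed to at most 2.10 RPKM there, with all 6 at a mean below 1 RPKM. In the primed state 4 of 4 tested fibroblast markers were called lower (sum 14.6 to 15.4 against 33.3 to 45.1 RPKM), and 2 of 4 tested trophoblast markers were called higher (sum 44.5 to 48.3 against 23.2 to 28.3 RPKM), beside 59.3% of all tested genes called lower and 4.16% higher. In both primed groups 3 of the 5 trophoblast and 2 of the 6 fibroblast markers had a mean below 1 RPKM, so these sums rest on the others. Of the primed neural markers 1 was called higher and 3 lower, with sums of 153 to 161 against 136 to 160 RPKM. No marker was listed at exactly 0, and the part of these cells in the sterol and fatty acid values was not tested.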

How the data were processed

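RNA of 8 libraries was measured, 2 per group. Per the submitters' processing notes, cutadapt 1.9, STAR 2.5.2b, featureCounts 1.5.1 and affy were used with build mm9, and ERCC spike-in RNA was added per the labels. The deposited values are RPKM, 1 per gene and library, and no spike-in row is present. The authors scaled them further, as the tables show: there are no zeros, and 4017 naive and 4501 primed rows are tied across the 4 libraries of that state. Their sums run from 341480 to 507598, so depth cannot be had. The scaling could move every fold change of a state.

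The log2(RPKM + 1) values were modelled by 4 group means in limma 3.58.1 in R 4.3.3 over genes with at least 1 RPKM in 2 libraries (13428), with an intensity trend and Benjamini-Hochberg adjustment. The residual degrees of freedom were 4 and the prior ones infinite (median residual SD 0.179), which makes small adjusted p-values smaller. The variance of a gene was thus the trend of all genes at its level, and the SE was the same in both states. After quantile normalization the prior was 3.71. With each state fitted alone, 5 more members were called in the naive state and 6 primed calls were lost. The code was tested on simulated data. Each state's knockout was compared with its wild type, and the 2 effects with each other. Alternatives were a pseudocount of 0.1, no filter or 5 RPKM, 3 other scalings, each state alone, no trend, a replicate block and leaving out each library. Members, lists and tests were chosen with earlier results of these data known. All 31 members may be named, and from each other list up to 3 called genes per direction and comparison by size, with Ino80. Some genes that this rule selects are not reported here. Names turned into dates (26 rows) were not named. Overlaps of genes come from RefSeq GRCm38.p6, promoter motifs were searched on both strands, and plots were made in Python 3.11.15 (matplotlib 3.10.9).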

Additional observations from a re-analysis of the deposited data

Results flagged for a closer look

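For 19 of the 30 tested genes the knockout effect differed between the primed and the naive state by the interaction test of limma (adjusted p below 0.05). In the sterol branch the primed minus naive difference on the log2 scale was 1.14 for Acat2, 0.50 for Mvk, 0.50 for Pmvk, 1.71 for Mvd, 0.97 for Fdps, 0.83 for Fdft1, 0.46 for Sqle and 0.74 for Lss. For the later enzymes and the carrier it was 1.36 for Cyp51, 0.80 for Tm7sf2, 1.76 for Msmo1, 1.73 for Nsdhl, 1.17 for Hsd17b7, 0.56 for Sc5d and 0.80 for Stard4. In the fatty acid branch it was 1.04 for Acly, 1.54 for Fasn, -0.44 for Elovl6 and 1.35 for Scd2. The calls of Mvk, Pmvk, Sc5d, Sqle and Elovl6 were each lost when a single library was left out. This held for 6 of 8 libraries for Mvk (adjusted p = 0.1 to 0.256), 5 for Pmvk, 5 for Sc5d, 2 for Sqle (the first knockout library of each state) and 4 for Elovl6. In those fits the difference kept its direction, at 0.30 to 0.59 for Mvk, 0.39 to 0.53 for Pmvk, 0.46 to 0.63 for Sc5d, 0.41 to 0.46 for Sqle and -0.47 to -0.38 for Elovl6. The value of Elovl6 was 0.11 after quantile normalization. The groups of 2 libraries are too small for a search for outlying libraries.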

How the results depend on the processing

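All 20 sterol genes kept a negative naive difference under median centring, quantile and loess normalization, while calls in the primed state and over all genes moved with the scaling. The cause was not tested. In the order median centring, quantile and loess normalization, naive calls over all genes were 2167, 4280 and 3911 higher (816 as deposited) and 2289, 3687 and 3808 lower (786). Each state alone gave 1431 higher and variances without a trend 439 higher and 469 lower. Naive sterol genes called lower were 20 and 20 after quantile and loess normalization (13), and naive fatty acid genes called higher were 1, 3 and 3, and 2 with each state alone (0), with 5 lower after loess (3). Primed calls over all genes were 5580, 5288 and 4965 higher (559) and 3163, 4648 and 4905 lower (7958). Primed sterol calls were 18 and 17 higher under median centring and quantile normalization (11) and 0, 1 and 1 lower (4). Primed fatty acid calls were 9, 9 and 9 higher (5) and 0, 1 and 1 lower, and 1 and 1 with each state alone and without a trend (2). For the difference, all genes gave 3922, 4557 and 4394 higher (290) and 2291, 4094 and 4114 lower (6368), and fatty acid genes 9, 10 and 9 higher (3) and 0, 0 and 0 lower, also 0 without a trend (1).

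Leaving out 1 library gave these ranges: naive, all genes 218 to 1693 higher and 311 to 1253 lower, and fatty acid genes 0 to 2 higher; primed, all genes 324 to 805 higher and 5137 to 9535 lower, sterol genes 6 to 12 higher and 2 to 6 lower, and fatty acid genes 1 to 3 lower; difference, all genes 148 to 448 higher and 3278 to 9014 lower, and fatty acid genes 0 to 2 lower. The 6 primed sterol genes were without the first primed knockout library and the 2 lower ones without the second. The fatty acid median of the difference ran from -0.10 (without the first primed wild-type library) to 0.31.

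Primed differences that turned positive were, in the same order of scalings, 0.25, 0.030 and 0.0013 for Pmvk, 0.30, 0.39 and 0.39 for Idi1, 0.63, 0.52 and 0.47 for Lss, 0.53, 0.44 and 0.41 for Tm7sf2, and 0.35, 0.11 and 0.069 for Dhcr7. They were 0.61, 0.62 and 0.60 for Acss2, 0.49, 0.49 and 0.46 for Me1 and 0.38, 0.21 and 0.18 for Elovl6, and with median centring 0.30 for Srebf2 and 0.0069 for Insig1. Differences between the states that turned positive were 0.65, 0.19 and 0.17 for Srebf2, 0.70, 0.66 and 0.65 for Insig1, 0.74, 0.36 and 0.32 for Srebf1 and 0.73, 0.75 and 0.75 for Acss2. They were 0.50, 0.49 and 0.48 for Me1, 0.32, 0.11 and 0.076 for Elovl6 and 0.56, 0.39 and 0.37 for Scd1.

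Same-numbered libraries deviated together with correlations of -0.31 to 0.31, so the numbers were not taken to pair them. With the replicate block the sterol branch had 12 genes called lower in the naive state, 11 higher and 4 lower in the primed state and 13 higher in the difference, and the fatty acid branch 3 lower, 4 higher and 2 lower, and 3 higher and 1 lower. Whole-gene RPKM without depth, 2 libraries a group and an unstated scaling limit what these values can resolve.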
